A study of Homo sapiens with 12 samples.

Results

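The genes described here are the SMAD transcription factors and the SMURF ubiquitin ligases that restrain them: SMAD1, SMAD2, SMAD3, SMAD4, SMAD5, SMAD6, SMAD7, SMAD9, SMURF1 and SMURF2. The rule that selects them uses the gene symbol and no measured value, although the set was drawn up with earlier results of these data known. These 10 genes correspond to 11 of the 22498 identifiers in the deposited count table, because SMURF1 carries 2 identifiers that were summed. All 10 passed the filter on low counts, among 13802 genes tested. RNA came from RPE1, an established human cell line derived from retinal pigment epithelium, labelled wild type, in 3 groups of 4 libraries. Control cells received the solvent DMSO, doxorubicin cells received 50 nM doxorubicin for 72 h, and the last group received the same doxorubicin with 5 µM ferrostatin-1, which was added again at 48 h. Doxorubicin is a DNA-damaging topoisomerase II poison, and ferrostatin-1 is a radical-trapping inhibitor of ferroptosis, the form of cell death driven by lipid peroxidation. No group with ferrostatin-1 alone was analysed here, so every effect of ferrostatin-1 below is an effect in the presence of doxorubicin. Because the RNA is of whole cultures of 1 line, fewer cells of a kind and less RNA per cell cannot be told apart.

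SMAD proteins carry signals from receptors of the TGF-beta and BMP families to the nucleus. An activated type I receptor phosphorylates serines at the very end of the receptor-regulated SMADs, which are SMAD2 and SMAD3 for TGF-beta and activin and SMAD1, SMAD5 and SMAD9 for BMPs. These then pair with the common partner SMAD4 and regulate target genes. SMAD6 and SMAD7 are inhibitory SMADs that block the receptors, and their genes are themselves induced by BMP and TGF-beta signalling. SMURF1 and SMURF2 are ubiquitin ligases that bind SMADs through a short proline and tyrosine motif (PPxY) and direct SMADs or receptors to degradation. Signalling depends on phosphorylation and protein turnover, and the libraries measure RNA only.

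The end of the coding sequence shows the division of labour among the SMADs, and is printed for that reason. Each line gives the last 30 coding bases before the stop codon of the principal transcript, from 5′ to 3′ on the coding strand, with the last 4 codons in capitals. Positions are those of GENCODE 29 on GRCh38.
SMAD1, chr4:145557902-145557931, plus strand: tcacctcataatcctattTCATCTGTATCT
SMAD5, chr5:136177448-136177477, plus strand: tcccctctgaaccccataTCTTCTGTTTCA
SMAD9, chr13:36848679-36848708, minus strand: tctccacataaccccattTCTTCAGTGTCT
SMAD2, chr18:47841830-47841859, minus strand: tccccttcagtgcgttgcTCAAGCATGTCA
SMAD3, chr15:67190504-67190533, plus strand: tccccaagcatccgctgtTCCAGTGTGTCT
SMAD4, chr18:51078435-51078464, plus strand: atgccgattgcagacccaCAACCTTTAGAC
SMAD6, chr15:66781503-66781532, plus strand: tggctggagatcctcctcAACAACCCCAGA
SMAD7, chr18:48921375-48921404, minus strand: tgctggctagaggtcatcTTCAACAGCCGG
The 5 receptor-regulated SMADs carry 3 serine codons each among these last 4. SMAD4 and SMAD6 carry 0, and SMAD7 carries 1.

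The motif that SMURFs bind is printed for the same purpose, as 10 codons around each stretch that encodes PPxY, with the 4 codons of the motif in capitals. A search of the principal coding sequences of the SMAD genes found it in 6 of them.
SMAD1, from codon 224: gatacgcccCCACCTGCTTACctgcctcct
SMAD5, from codon 223: gatacgcctCCTCCTGCCTATatgccacct
SMAD2, from codon 222: gaaacgccaCCTCCTGGATATatcagtgaa
SMAD3, from codon 181: gagaccccaCCCCCTGGCTACctgagtgaa
SMAD6, from codon 276: gaatctccgCCACCTCCCTACtctcggctg
SMAD6, from codon 431: cgcaaggtgCCCCCCGGCTACtccatcaag
SMAD7, from codon 208: gagtctcccCCCCCTCCTTACtccagatac
No stretch of these letters was found in the principal coding sequences of SMAD4 and SMAD9. The principal transcript of SMAD9 has 430 codons, against 465 each for SMAD1 and SMAD5. SMAD9 has 3 annotated coding transcripts, and transcripts other than the principal one were not searched for any gene. The stretches in SMAD1 and SMAD5, on chromosomes 4 and 5, and the second one in SMAD6, on chromosome 15, lie within 1 exon, and the others span an intron.

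Library totals ran from 17523920 to 24879198 counts, and levels below are CPM, counts scaled to a common library size, after scaling of the libraries by TMM factors. Control replicate 1 stood apart from the other control libraries by a chi-square per degree of freedom of 8.22 to 14.2 over genes, against 3.70 to 5.02 among the others. Leaving it out changed the call of none of the 10 genes in any of the 3 comparisons. Markers did not set the line apart as mature retinal pigment epithelium: RPE65 was not among the rows, RLBP1 and TTR had at most 4 counts and 1 count in any library, and BEST1 had 16 to 37 counts. The transcription factors MITF and OTX2 of that lineage were at 45.3 and 17.6 CPM in control, beside 7486 CPM of VIM and 340 CPM of KRT8. Of the other markers of epithelium and mesenchyme, KRT18 and CDH2 were at 257 and 284 CPM in control. CDH1 had at most 3 counts in any library. Summed markers of immune cells (3 of 5 in the table) were at 61.9 to 69.7 CPM in control, 70.8 to 78.4 with doxorubicin and 77.4 to 87.8 with both compounds. This sum was mostly CD68, at 64.1, 73.7 and 82.2 CPM in these groups. LYZ went from 0.906 CPM in control to 0.537 and 0.618, and the defining gene PTPRC had at most 12 counts. Summed neuronal markers (4 of 4) were at 406 to 475 CPM in control, 512 to 543 with doxorubicin and 595 to 654 with both compounds. The neuronal sum was mostly TUBB3, a tubulin gene, at 417, 486 and 595 CPM in these groups. SNAP25 was at 4.65, 4.67 and 6.49 CPM. SYT1 did not follow the sum, at 33.0, 33.5 and 26.4 CPM. RBFOX3, with at most 11 counts, went from 0.414 CPM in control to 0.0960 and 0.0836. Endothelial markers (3 of 4) summed to 3.67 to 5.20 CPM in control and 1.02 to 2.14 in the treated groups, and melanocyte markers (3 of 3) to 0.546 to 1.24 CPM over all libraries. The endothelial sum was mostly KDR, at 4.00 CPM in control, 1.43 with doxorubicin and 1.12 with both compounds. VWF went the other way, from 0.0133 to 0.369 and 0.264 CPM, and PECAM1 had at most 5 counts. Their part in the results was not tested.

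Doxorubicin changed the RNA of 9 of the 10 genes: SMURF2 and SMURF1 rose, and SMAD1, SMAD2, SMAD3, SMAD4, SMAD5, SMAD6 and SMAD9 fell. SMAD7 missed the threshold. A gene was called at a Benjamini-Hochberg adjusted p below 0.05 in edgeR's quasi-likelihood test, adjusted over all genes tested, and the p-values below come from that test unless another is named. The background was broad, with 64.0% of all tested genes called in the same comparison, 32.2% higher and 31.8% lower. The median log2 change of the 10 genes was -0.44, against -0.01 over all genes tested. The doxorubicin and control libraries did not overlap in 9 of the 10 genes, and in 58.7% of all tested genes.

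Ferrostatin-1 given with doxorubicin changed fewer of them. SMAD6, SMAD9 and SMURF2 were higher with both compounds than with doxorubicin alone, and none was lower, on a background of 5.00% of all tested genes called, 2.16% of all tested genes higher and 2.84% lower. The median log2 difference of the 10 genes was -0.07, against 0.001 over all genes. In these 3 genes the libraries of the groups did not overlap, as for 10.9% of all tested genes. Against control, both compounds together left all 10 genes called, SMURF1 and SMURF2 higher and the 8 SMAD genes lower, where 64.3% of all tested genes were called, 32.0% higher and 32.3% lower. Those groups did not overlap in 7 of the 10, and in 57.7% of all tested genes. The median log2 difference was then -0.36, against -0.02 over all genes. The comparisons are not independent of each other, since the doxorubicin libraries serve in 2 of them and the control libraries in 2.

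**Figure D1:**
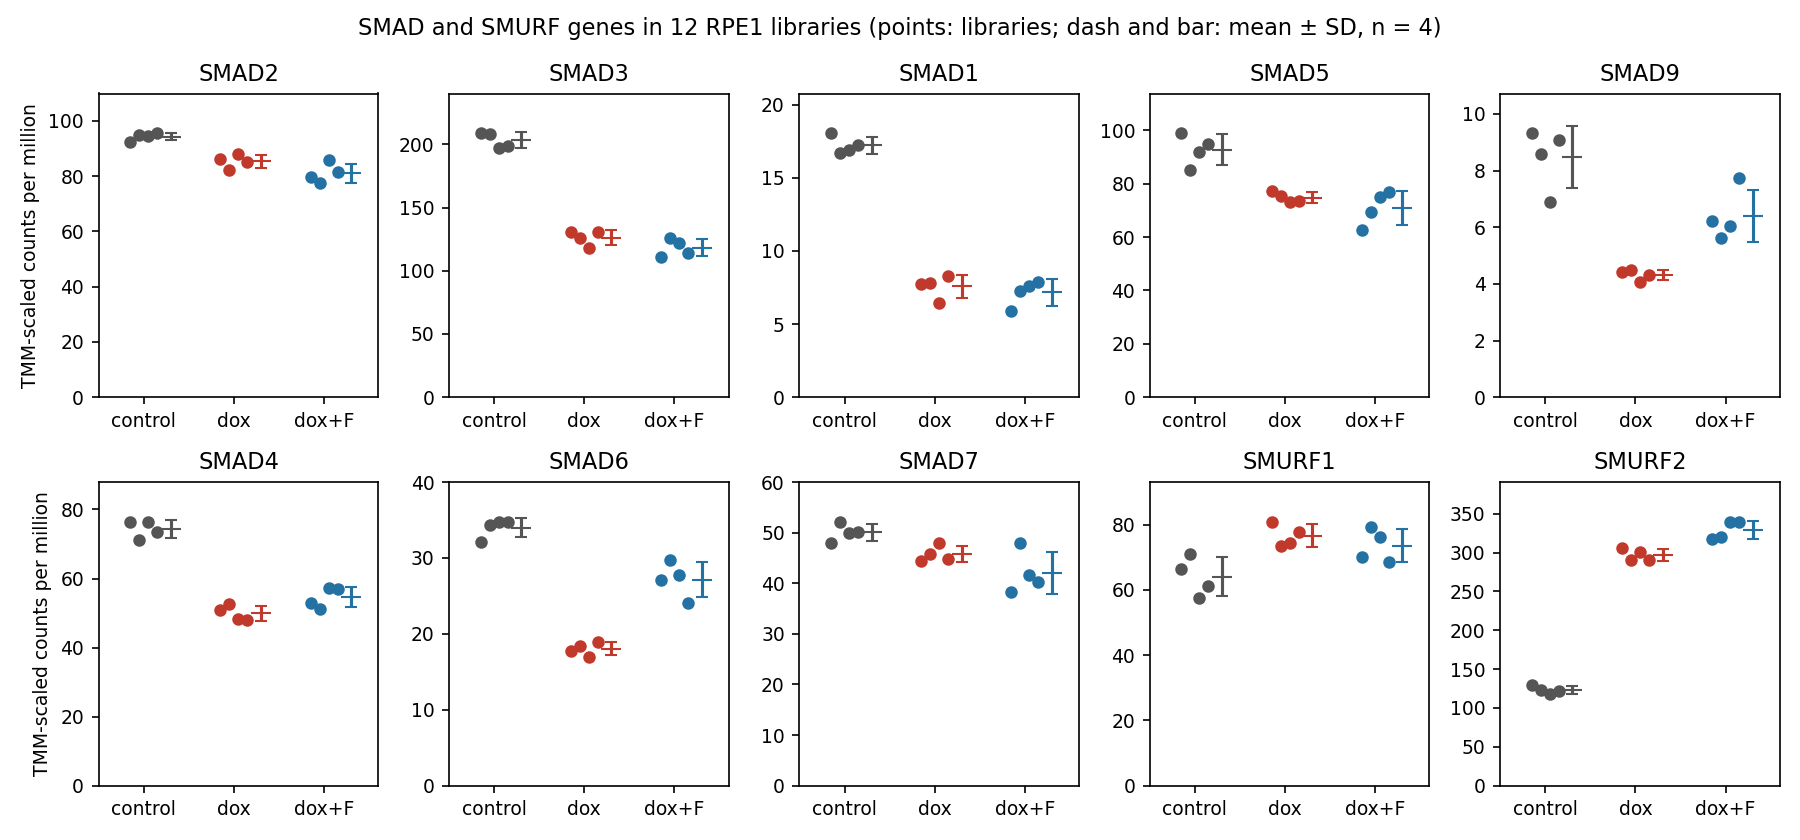
Level of each of the 10 genes in every library, in CPM, with points for the 12 libraries and a dash and bar for the mean and SD of each group of 4 (dox, doxorubicin; dox+F, doxorubicin with ferrostatin-1). SMURF2 lies between 118 and 129 CPM in control and between 291 and 306 with doxorubicin, and SMAD6 is lowest with doxorubicin alone.

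Among the SMADs of the TGF-beta and activin branch, SMAD3 (chr15:67063763-67195195, plus strand) fell further than SMAD2 (chr18:47808957-47931146, minus strand). SMAD3 RNA was 209, 208, 198 and 199 CPM in the control libraries, 130.3, 126, 118 and 131 with doxorubicin, and 111, 126, 122 and 114 with both compounds. Every doxorubicin library was below every control library, and the 2 treated groups overlapped. The mean fell from 203 ± 6.10 to 126 ± 6.00 CPM (SD, n = 4), a log2 change of -0.69 ± 0.0486 (SE, adjusted p = 1.08e-08). Ferrostatin-1 gave a further log2 difference of -0.10 ± 0.049 that missed the threshold (adjusted p = 0.385).

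SMAD2 RNA was 92.4, 94.8, 94.4 and 95.6 CPM in control, 86.2, 82.2, 88.0 and 85.2 with doxorubicin, and 79.9, 77.4, 85.7 and 81.4 with both compounds. The doxorubicin libraries all lay below the control libraries, by a small margin. The log2 change was -0.14 ± 0.0407 (adjusted p = 0.00665), or -0.29 (adjusted p = 1.52e-05) when libraries were scaled by their totals, which moved the median of all genes to -0.155, and the difference between the treated groups was -0.07 ± 0.0408 (adjusted p = 0.421). SMAD2 and SMAD3 share most of their partners, so their ratio within a library was also compared, which does not depend on how libraries are scaled. The count ratio of SMAD2 to SMAD3 was 0.464 ± 0.0184 in control and 0.678 ± 0.0462 with doxorubicin (SD, n = 4), a log2 difference of 0.55 with no overlap between the groups (exact two-sided permutation test, p = 0.0286, adjusted p = 0.0457 over 8 ratio tests). A p of 0.0286 is the smallest that 4 libraries against 4 can give. With both compounds the ratio was 0.687 ± 0.0486, a log2 difference of 0.02 from doxorubicin (exact p = 0.743, adjusted p = 0.849).

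The SMADs of the BMP branch also differed among themselves. SMAD1 (chr4:145481194-145558079, plus strand) had the largest negative log2 change of the 10 genes. Its RNA was 18.1, 16.7, 16.9 and 17.2 CPM in control, 7.74, 7.83, 6.43 and 8.28 with doxorubicin, and 5.88, 7.27, 7.59 and 7.90 with both compounds. All treated libraries were far below the control libraries and overlapped with each other. The mean fell from 17.2 ± 0.595 to 7.57 ± 0.793 CPM, a log2 change of -1.19 ± 0.106 (adjusted p = 1.40e-07), and the difference made by ferrostatin-1 was -0.08 ± 0.108 (adjusted p = 0.809).

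SMAD5 (chr5:136132845-136188747, plus strand), which encodes a close relative of SMAD1, fell less. It stood at 99.0, 85.3, 92.0 and 94.9 CPM in control, 77.2, 75.4, 73.2 and 73.4 with doxorubicin, and 62.6, 69.4, 74.9 and 77.0 with both compounds. The doxorubicin libraries lay below all control libraries and overlapped with the wider range of the group with both compounds. The log2 change with doxorubicin was -0.31 ± 0.063 (adjusted p = 0.000546), and that between the treated groups was -0.08 ± 0.0634 (adjusted p = 0.646). The count ratio of SMAD1 to SMAD5 fell from 0.186 ± 0.00691 to 0.101 ± 0.0103 (SD, n = 4), a log2 difference of -0.88 (exact two-sided permutation test, p = 0.0286, adjusted p = 0.0457), and was 0.101 ± 0.00465 with both compounds.

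SMAD9 (chr13:36844831-36920765, minus strand), the third BMP-branch SMAD, was the lowest of the 10 genes per kilobase in each group. It had 75 to 188 counts per library. Its RNA was 9.32, 8.60, 6.91 and 9.07 CPM in control, 4.40, 4.49, 4.07 and 4.31 with doxorubicin, and 6.21, 5.63, 6.05 and 7.73 with both compounds. The group with both compounds lay wholly above doxorubicin and overlapped with control. SMAD9 fell with doxorubicin by a log2 change of -0.97 ± 0.128 (adjusted p = 9.86e-06) and was higher with ferrostatin-1 by 0.57 ± 0.129 (adjusted p = 0.0176). That second call was lost without doxorubicin replicate 3 (0.54, adjusted p = 0.0562) and without replicate 4 of the group with both compounds (0.46, adjusted p = 0.0642). It was still below control with both compounds, by -0.40 ± 0.125 (adjusted p = 0.0109).

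SMAD4 (chr18:51028394-51085045, plus strand), the partner common to both branches, fell. It was at 76.5, 71.1, 76.3 and 73.4 CPM in control, 51.0, 52.5, 48.2 and 48.0 with doxorubicin, and 53.0, 51.3, 57.3 and 57.1 with both compounds. Treated libraries were all below control, and the 2 treated groups overlapped. The mean went from 74.3 ± 2.58 to 49.9 ± 2.18 CPM, a log2 change of -0.57 ± 0.0503 (adjusted p = 1.21e-07), and the difference between the treated groups was 0.13 ± 0.0507 (adjusted p = 0.213).

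**Figure D2:**
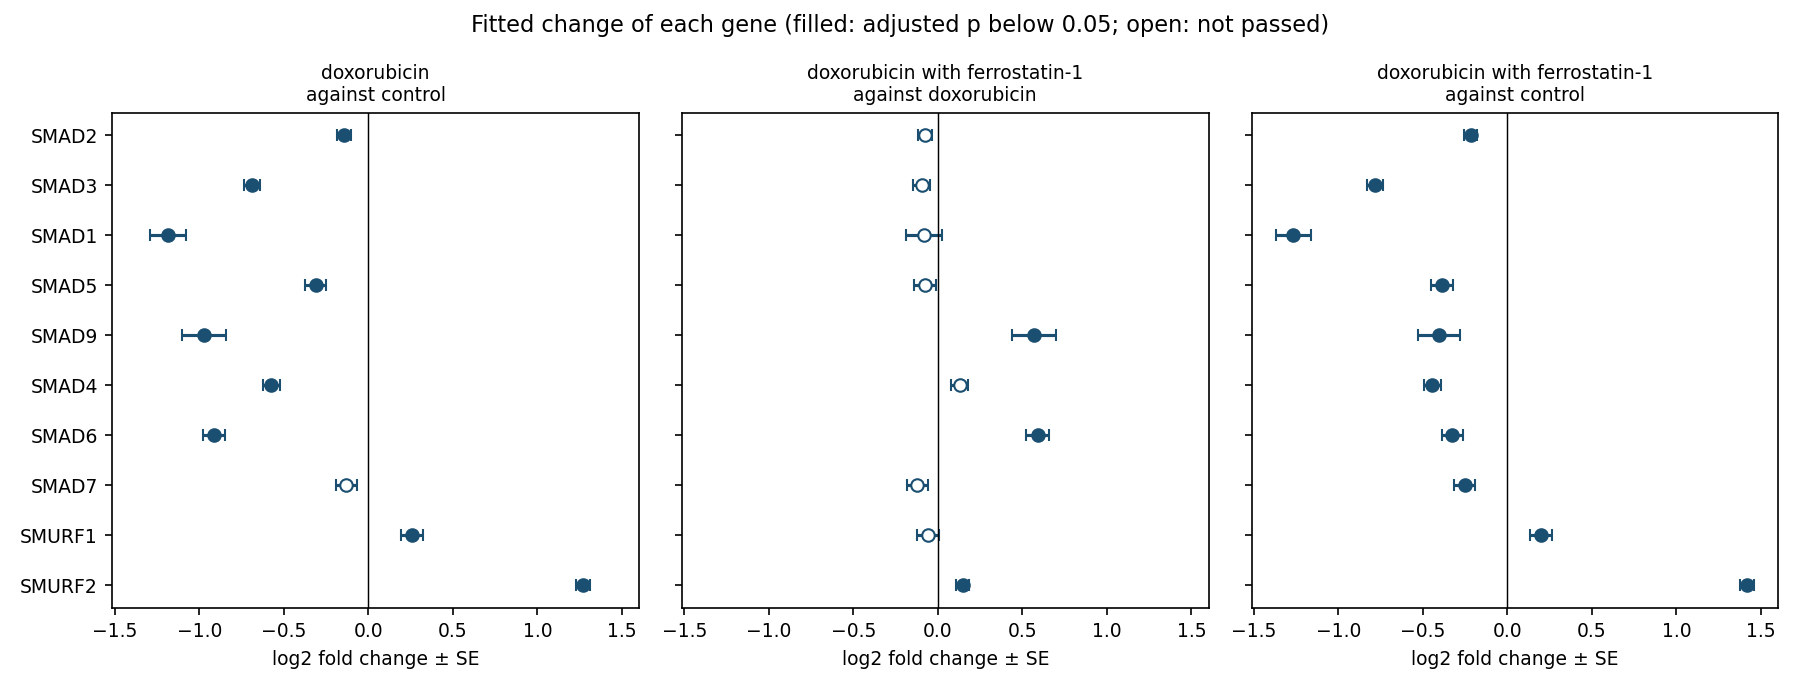
Log2 change of each of the 10 genes in the 3 comparisons, with bars for the standard error and filled points where the adjusted p is below 0.05 in edgeR's quasi-likelihood test. SMURF2 stands at 1.27 in doxorubicin against control and SMAD1 at -1.19, while ferrostatin-1 gives its largest difference, 0.59, in SMAD6.

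Of the inhibitory SMADs, SMAD6 (chr15:66702228-66782848, plus strand), which acts mainly on BMP signalling, fell with doxorubicin and was higher again with ferrostatin-1, short of the control level. Its RNA was 32.1, 34.3, 34.8 and 34.7 CPM in control, 17.8, 18.4, 17.0 and 19.0 with doxorubicin, and 27.1, 29.7, 27.8 and 24.1 with both compounds. The 3 groups did not overlap, and the group with both compounds lay between the others. The mean fell from 34.0 ± 1.27 to 18.0 ± 0.839 CPM, a log2 change of -0.91 ± 0.0657 (adjusted p = 1.29e-08). With ferrostatin-1 it was 27.1 ± 2.33 CPM, higher than with doxorubicin alone by 0.59 ± 0.0661 (adjusted p = 5.85e-05) and lower than control by a log2 difference of -0.32 ± 0.0634 (adjusted p = 0.000380). Both calls held under all 19 alternative settings and left-out libraries tried. These 2 contrasts share the doxorubicin libraries, so a low value there enters both.

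SMAD7 (chr18:48919853-48952052, minus strand), the inhibitor of both branches, showed no such pattern. It was at 47.9, 52.2, 49.9 and 50.2 CPM in control, 44.3, 45.8, 47.9 and 44.9 with doxorubicin, and 38.4, 48.0, 41.5 and 40.3 with both compounds. The highest doxorubicin library overlapped with the lowest control library. The log2 change with doxorubicin was -0.13 ± 0.0621 (adjusted p = 0.0805), which passed the threshold when libraries were scaled by their totals (-0.27, adjusted p = 0.00103), in a fit of those 2 groups alone (-0.14, adjusted p = 0.0266) and without replicate 2 of the group with both compounds (-0.13, adjusted p = 0.0226). The difference between the treated groups was -0.12 ± 0.0624 (adjusted p = 0.378), and it passed without that same replicate (-0.19, adjusted p = 0.0485). Both compounds against control gave -0.25 ± 0.0619 (adjusted p = 0.00232), or -0.41 (adjusted p = 3.04e-05) with library totals, although 1 library reached into the control range.

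The count ratio of SMAD6 to SMAD7 fell from 0.679 ± 0.0187 in control to 0.395 ± 0.0287 with doxorubicin (SD, n = 4), a log2 difference of -0.78 (exact two-sided permutation test, p = 0.0286, adjusted p = 0.0457). With both compounds it was 0.647 ± 0.0487, higher than with doxorubicin by 0.71 (exact p = 0.0286, adjusted p = 0.0457). Libraries of the treated groups did not overlap in this ratio, and those of control and of both compounds did.

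**Figure D3:**
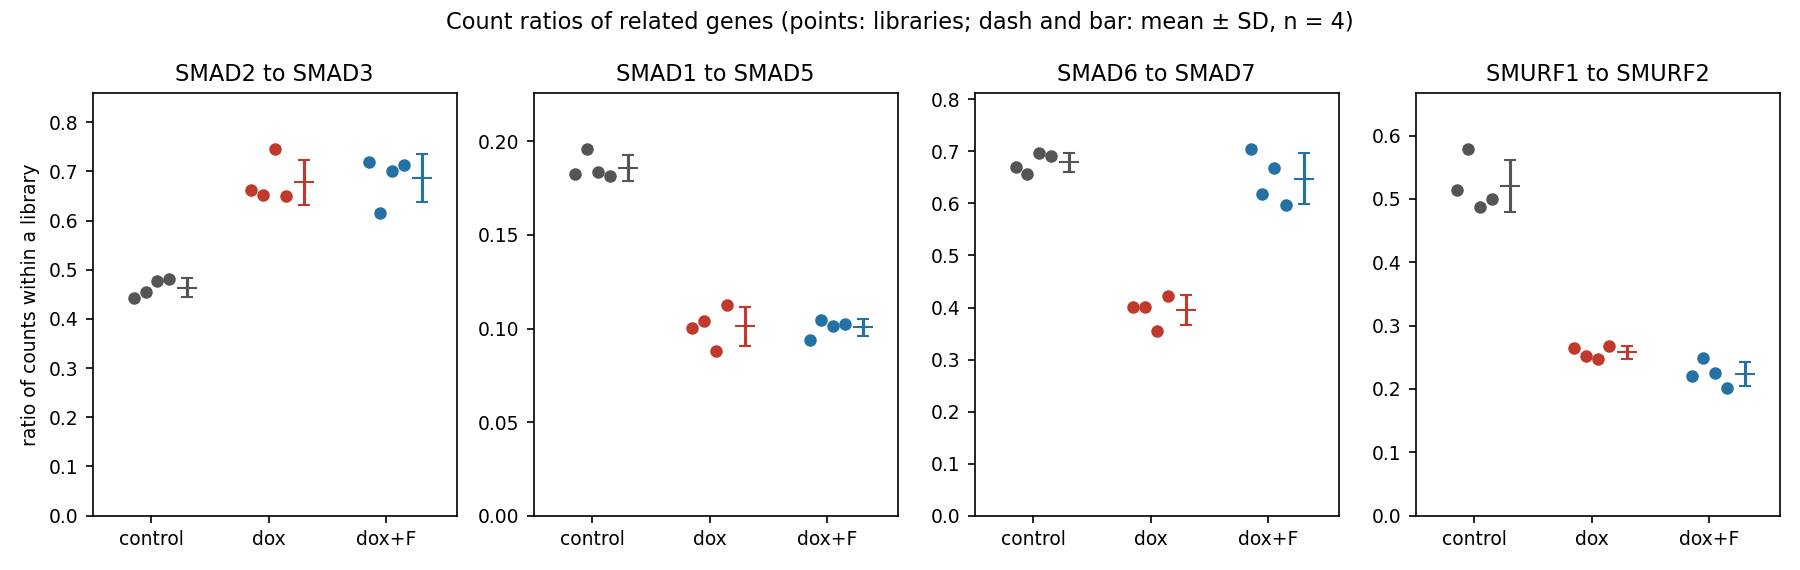
Count ratio of 4 pairs of related genes within each library, with points for libraries and a dash and bar for the mean and SD of each group of 4 (dox, doxorubicin; dox+F, doxorubicin with ferrostatin-1). The ratio of SMAD6 to SMAD7 is 0.679 in control, 0.395 with doxorubicin and 0.647 with both compounds; SMURF1 to SMURF2 falls from 0.520 to 0.258 and 0.224.

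Because SMAD6 changed in both directions, the 250 bases before its annotated start are printed, from RefSeq on GRCh38.p14 (chr15:66701986-66702235, plus strand). Capitals mark GTCTAGAC, a palindrome built on the 4-base element GTCT to which SMAD3 and SMAD4 bind.
SMAD6 promoter: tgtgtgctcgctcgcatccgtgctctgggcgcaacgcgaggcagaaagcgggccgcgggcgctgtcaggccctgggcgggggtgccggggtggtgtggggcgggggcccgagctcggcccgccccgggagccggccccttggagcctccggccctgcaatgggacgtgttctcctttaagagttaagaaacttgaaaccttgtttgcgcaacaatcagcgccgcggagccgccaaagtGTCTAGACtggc
The palindrome begins 12 bases before the start, and 0.202% of all 35116 RefSeq promoter windows, each from 250 bases before a start to 50 after it, hold it on either strand. Among the windows searched, 1 for each of the 10 genes, 1 holds it, that of SMAD6. SMAD9 also changed in both directions, and its window, which is not printed, does not hold the palindrome. A part of the palindrome in these changes was not tested. The window of SMAD7 starts 1087 bases from the start of its principal transcript, so the promoter of that transcript was not searched, and the windows of SMAD3 and SMURF2 start 243 and 239 bases from theirs. The shorter element CAGAC, which is GTCTG on the other strand, was found in 5 of the 10 and in 45.3% of all windows, and GGCGCC, a GC-rich element described in BMP targets, in 4 of the 10 and in 19.2%. The palindrome contains neither CAGAC nor GTCTG, both strands were searched, and a match is a description of the letters, not of a bound site.

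SMURF2 (chr17:64542295-64662068, minus strand), which encodes a ligase for receptors and SMADs, had the largest rise of the 10 genes. It was at 129, 123, 118 and 122 CPM in control, 306, 291, 301 and 291 with doxorubicin, and 318, 319.6, 339.9 and 339 with both compounds. No library of any group overlapped with another group. The mean rose from 123 ± 4.66 to 297 ± 7.72 CPM, a log2 change of 1.27 ± 0.0409 (adjusted p = 1.34e-12). With both compounds it was 329 ± 12.2 CPM, a further log2 difference of 0.15 ± 0.0396 at the edge of the threshold (adjusted p = 0.0470). That call was lost in 15 of 19 alternatives, among them scaling by library totals (adjusted p = 0.0643) and no filter on low counts (adjusted p = 0.0726), and in 11 of the 12 fits that left out 1 library (adjusted p from 0.0526 to 0.155). A pseudogene, SMURF2P1, had 9 to 30 counts per library, and CEP95, which shares 2.40% of the exon bases of SMURF2, had 120 to 269.

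SMURF1 (chr7:99027438-99144100, minus strand), a ligase for BMP-branch SMADs, rose less. Summed over its 2 identifiers it was at 66.5, 71.0, 57.5 and 61.2 CPM in control, 81.0, 73.4, 74.4 and 77.8 with doxorubicin, and 70.3, 79.3, 76.3 and 68.4 with both compounds. Doxorubicin libraries all lay above control, and those with both compounds overlapped with each of the other groups. The log2 change with doxorubicin was 0.26 ± 0.0672 (adjusted p = 0.00365), which was lost when libraries were scaled by their totals (0.11, adjusted p = 0.161). The difference made by ferrostatin-1 was -0.06 ± 0.0667 (adjusted p = 0.768). Both compounds against control gave 0.20 ± 0.067 (adjusted p = 0.0172), which missed the threshold in 5 of 19 alternatives: with library totals (0.05, adjusted p = 0.565), and without control replicate 3 (adjusted p = 0.0753), control replicate 4 (adjusted p = 0.0574), or replicate 2 (adjusted p = 0.0659) or 3 (adjusted p = 0.0510) of the group with both compounds.

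The 2 identifiers of SMURF1 divided its reads unevenly among libraries. The identifier ENSG00000284126 held 471, 22, 514 and 97 counts in the control libraries, 1, 4, 18 and 4 with doxorubicin, and 9, 8, 13 and 288 with both compounds. ENSG00000198742 held 870, 1315, 693 and 1159 counts in control, 1433, 1467, 1369 and 1350 with doxorubicin, and 1688, 1542, 1475 and 1253 with both compounds. The first took 1.65% to 42.6% of SMURF1 counts in control, 0.0697% to 1.30% with doxorubicin and 0.516% to 18.7% with both compounds. Control libraries that were high in one were low in the other, and the sums, 1341, 1337, 1207 and 1256 counts in control, were close together. Fitted apart, ENSG00000284126 gave a log2 change with doxorubicin of -5.18 ± 1.33 (adjusted p = 0.00338) and ENSG00000198742 gave 0.59 ± 0.171 (adjusted p = 0.00728), against 0.26 for their sum, so the size of the change of SMURF1 depends on summing. ENSG00000284126 was not found in GENCODE 29, and no position is given for it.

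**Figure D4:**
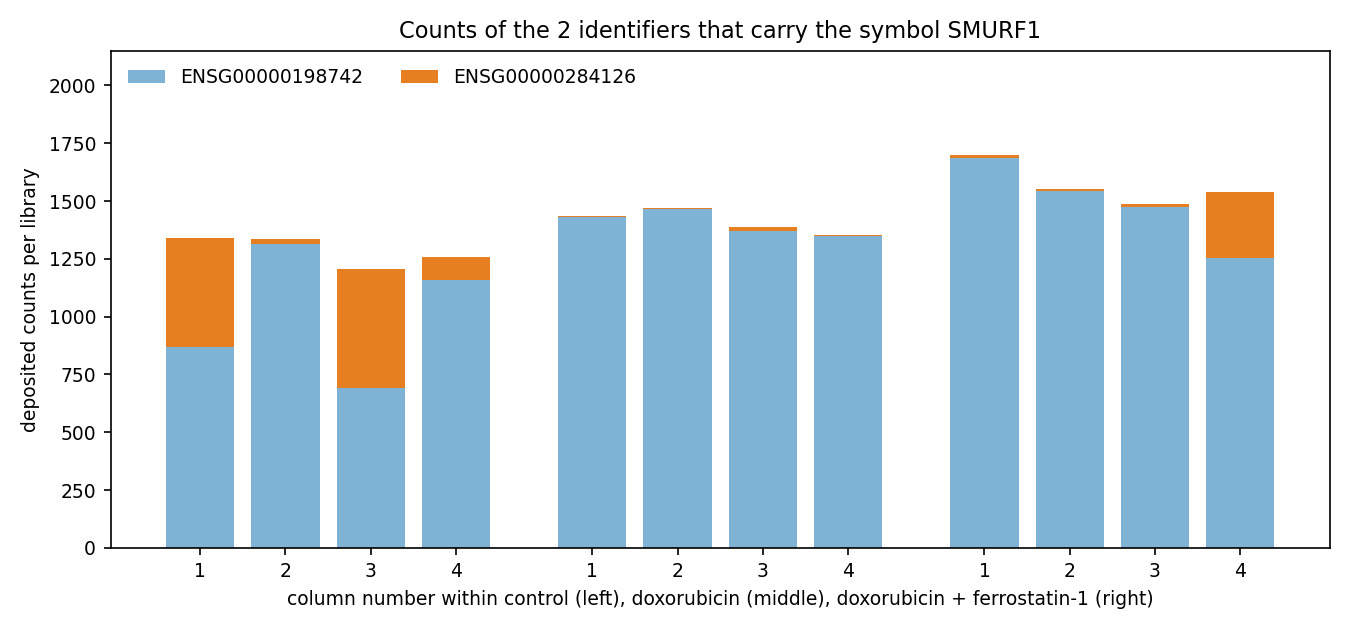
Counts of the 2 SMURF1 identifiers in each of the 12 libraries, with the sum of each bar equal to the SMURF1 count of that library. ENSG00000284126 holds 22 to 514 counts in the control libraries and 1 to 18 in the doxorubicin libraries, while the sums lie between 1207 and 1697 counts.

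The kit does not mark the strand, so reads from overlapping genes on opposite strands cannot be told apart. SMURF1 shares 735 exon bases, 11.7% of its total, with TRRAP on the other strand, which had 1761 to 3204 counts per library and itself fell from 131 ± 19.1 to 101 ± 6.54 CPM (log2 change -0.37, adjusted p = 0.00234). SMAD4 shares 7.37% of its exon bases with AC091551.1, which had 0 to 4 counts. The antisense genes of SMAD1 and SMAD5 overlap with 6.21% and 6.75% of their exon bases and were not analysed here. The part of shared reads in the changes was not tested.

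The ratio of SMURF1 to SMURF2 counts fell from 0.520 ± 0.0410 in control to 0.258 ± 0.00974 with doxorubicin (SD, n = 4), a log2 difference of -1.01 (exact two-sided permutation test, p = 0.0286, adjusted p = 0.0457). With both compounds it was 0.224 ± 0.0191, a difference of -0.21 from doxorubicin that missed the threshold (exact p = 0.0571, adjusted p = 0.0762).

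Levels of different genes were set beside each other only per kilobase, as CPM divided by the mean length of the coding transcripts. That mean takes in short and very long annotated transcripts, so the order below is partly one of the lengths used. It was 1033 bases for SMAD1 (longest 2085) and 1287 bases for SMAD3 (longest 6247). For SMAD2 it was 6437 bases, with a longest transcript of 34526. In control, SMAD3 led at 158 CPM per kb, followed by SMURF2 at 53.1, SMAD5 at 36.7, SMAD4 at 29.5, SMAD7 at 26.9 and SMAD1 at 16.7. SMAD6 at 15.2 and SMAD2 at 14.7 overlapped in their libraries, SMURF1 followed at 11.3, and SMAD9 was lowest at 1.55. With doxorubicin SMURF2 led at 128 CPM per kb, ahead of SMAD3 at 98.1, and with both compounds the same genes stood at 142 and 91.9. SMAD9 stayed lowest, at 0.789 and 1.17 CPM per kb. The order depends on which transcript length is used, and most places moved. With the longest transcript SMURF2 led SMAD3 in control too, at 42.2 against 32.6 CPM per kb, and SMAD9 was lowest in all 3 groups. In control SMURF1 then went from place 9 to place 5, and SMAD4 from place 4 to place 7. SMURF1 went from place 6 to place 3 with doxorubicin and with both compounds.

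Genes whose levels followed those of each member most closely were found by Pearson correlation of log2 CPM over the 12 libraries, as a description, since the 12 libraries share 3 groups. For SMAD6 these were GRB10 (r = 0.981), at 109, 68.7 and 90.7 CPM in control, doxorubicin and both compounds, and SEMA3B (r = 0.957), at 32.8, 22.4 and 29.4 CPM. SMAD9 was followed by AREG (r = 0.944), itself at a low level of 0.946, 0.557 and 0.722 CPM in the 3 groups, and ELK3 (r = 0.940). SMAD1 was followed by DIAPH1 (r = 0.993) and NPAT (r = 0.992), SMAD3 by NUP210 (r = 0.994) and EEPD1 (r = 0.993), and SMAD4 by HLTF (r = 0.989) and ZNF639 (r = 0.988). For SMURF2 they were PKP2 and CCND1 (r = 0.998 each), the latter encoding cyclin D1, at 1302, 4286 and 4706 CPM in the 3 groups. SMAD2 was followed by SMARCE1 and CD55, SMAD5 by ATF1 and OSBPL8, SMAD7 by AP5B1 and CORO1A, and SMURF1 by SLITRK5 and ZNF275, with r from 0.937 to 0.974.

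The other genes of the pathway were taken from 8 lists of 83 genes. Of these, 73 were tested, 7 had too few counts and 3 were not analysed here. With doxorubicin 27 rose, 30 fell and 16 missed the threshold, so 78.1% were called, beside 64.0% of all tested genes, with a median log2 change of -0.12. With ferrostatin-1 9 were higher and 5 lower than with doxorubicin alone, 19.2% of those tested, beside 5.00% of all tested genes. The counts of each list below stand beside these same shares of all tested genes. With doxorubicin, type I receptors (33.3%) and SMAD co-repressors (57.1%) were called less often than all tested genes, and the other lists more often. Within each list, named genes were chosen by their p-values, or are all the genes behind a count of 5 or fewer and were then chosen after their values were seen.

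Of the type I receptors, which phosphorylate SMADs, 6 of 7 were tested. TGFBR1, the TGF-beta receptor kinase, fell from 53.7 to 38.8 CPM (log2 change -0.47, adjusted p = 5.08e-06), and ACVR1B, an activin receptor, rose from 18.1 to 21.3 CPM (0.23, adjusted p = 0.0248). The other 4, among them the BMP receptors BMPR1A (-0.12, adjusted p = 0.0635) and BMPR1B, missed the threshold, and none of the 6 was called with ferrostatin-1. Among 7 tested type II and co-receptors 3 rose and 2 fell. TGFBR2, which activates TGFBR1, rose from 108 to 141 CPM (0.38, adjusted p = 6.96e-06) and was lower with both compounds, at 123 CPM (-0.20, adjusted p = 0.0296). BAMBI, a decoy receptor without a kinase, rose from 30.1 to 48.6 CPM (0.69), and ENG rose at a level near 1 CPM. ACVR2B, an activin receptor, fell from 6.64 to 3.04 CPM (-1.13), and its relative ACVR2A fell from 5.61 to 4.26 CPM (-0.40).

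Of the 7 SMAD co-repressors 1 rose, PMEPA1, and 3 fell, SKI, TGIF1 and TGIF2, with TGIF1 at 34.4 CPM in control and 22.3 with doxorubicin (-0.62, adjusted p = 1.52e-07). SKIL, a repressor that TGF-beta induces, missed the threshold (0.08, adjusted p = 0.299), and none of the 7 was called with ferrostatin-1. Among 8 tested co-activators and partner factors 1 rose and 5 fell. CITED2, a p300-binding co-activator, rose from 320.1 to 1009.8 CPM (1.66) and was lower with both compounds, at 852 CPM (-0.24, adjusted p = 0.00198). RUNX2, a bone transcription factor that binds SMADs, fell from 51.5 to 26.0 CPM (-0.99) and was lower again with both compounds, at 15.8 CPM (-0.72, adjusted p = 7.24e-05). CREBBP, RUNX1, TRIM28 and ZEB2 also fell, and ZEB2 was higher with ferrostatin-1 (0.27, adjusted p = 0.00651).

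All 11 receptor adaptors and nuclear transport genes were called with doxorubicin, 4 higher and 7 lower, and none with ferrostatin-1. The exporter XPO1 fell from 362 to 174 CPM (-1.06), the importin KPNB1 fell from 702 to 449 CPM (-0.65), and XPO4, an exporter of SMAD3, fell from 50.1 to 34.9 CPM (-0.52). FKBP1A, which binds type I receptors and keeps them inactive, rose from 454 to 660.2 CPM (0.54), and STRAP, HGS and ZFYVE9 also rose. Of 13 other ubiquitin ligases and deubiquitinases 5 rose and 4 fell. NEDD4L, a ligase related to the SMURFs, rose from 160.1 to 289 CPM (0.85, adjusted p = 3.93e-11) and was lower with both compounds, at 257 CPM (-0.17, adjusted p = 0.0135). STUB1, RNF111, USP9X and USP15 also rose, and CUL1, UCHL5, TRIM33 and WWP2 fell, CUL1 by a log2 change of -0.58.

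Among 7 tested BMP response genes 5 fell with doxorubicin, with a median log2 change of -0.45. ID1, an inhibitor of differentiation induced by BMP-branch SMADs, went from 64.4 to 47.1 CPM (-0.45, adjusted p = 0.000234) and stood at 63.9 CPM with both compounds (0.44, adjusted p = 0.00499). ID3 went from 125 to 102 CPM (-0.30, adjusted p = 0.00164) and stood at 139.8 CPM with both (0.46, adjusted p = 0.000855). ATOH8 fell from 66.6 to 16.8 CPM (-1.98), and its difference with ferrostatin-1 missed the threshold (0.21, adjusted p = 0.0561). ID2 and HEY1 fell at low levels. GREM1, which encodes a secreted BMP antagonist, was the 1 gene of the list that rose, from 266 to 706 CPM (1.41), and it was lower with both compounds, at 413 CPM (-0.77, adjusted p = 1.12e-07). These values are of ENSG00000276886, and a second identifier of GREM1, ENSG00000282046, which was not summed with it, went from 219.5 to 518 CPM (1.24, adjusted p = 7.42e-09) and 275 CPM with both compounds (-0.91, adjusted p = 8.77e-06).

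All 14 tested TGF-beta response genes were called with doxorubicin, 11 higher and 3 lower, with a median log2 change of 0.75. Of all tested genes 64.0% were called, 32.2% higher and 31.8% lower. CCN2, a matricellular protein gene, rose from 406 to 1429.5 CPM (1.82), and TAGLN, an actin-binding protein gene, from 333 to 1074 CPM (1.69). The 3 that fell were COL1A1, SNAI1 and IL11. With both compounds 6 of the 14 were higher than with doxorubicin alone and none was lower, beside 2.16% of all tested genes higher and 2.84% lower. CCN2 reached 1648 CPM (0.21, adjusted p = 0.00658), TAGLN 1359 CPM (0.34, adjusted p = 0.00101), LTBP2 417 CPM against 293 (0.51, adjusted p = 0.000143) and TGFBI 569.9 CPM against 491 (0.22, adjusted p = 0.000587), beside CDKN2B and BHLHE40. Many of these genes also respond to signals other than TGF-beta.

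**Figure D5:**
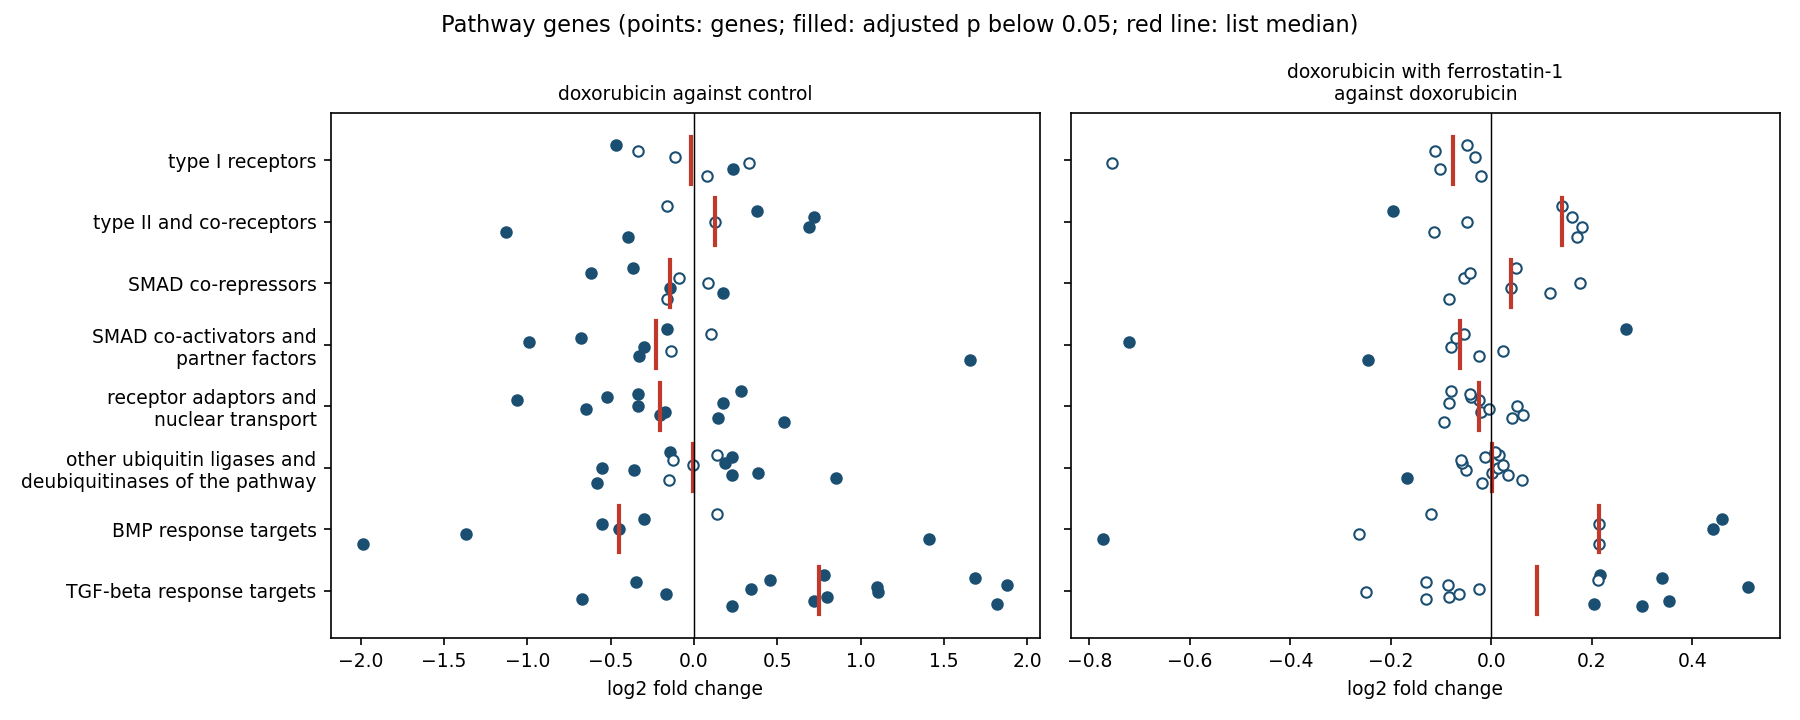
Log2 change of every tested gene of the 8 pathway lists, with doxorubicin against control and with ferrostatin-1 added against doxorubicin on separate axes, filled points where the adjusted p is below 0.05 and a line at the median of each list. TGF-beta response genes have a median of 0.75 with doxorubicin and BMP response genes one of -0.45.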

How the data were processed

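Per the labels' protocols, 12 libraries of RPE1 RNA, 4 in each group, were prepared with the NEBNext Ultra RNA kit, which does not mark the strand, and read as pairs of 150 bases. The authors deposited whole-number counts per gene identifier. Per the submitters' processing notes, Salmon, DESeq2 and GRCh38 were used, and versions, roles and the annotation are not given in the sources used here. Count columns name a group and a number, and nothing states that replicates were separate cultures, so p-values measure the spread between these libraries, which may be technical. Counts of identifiers sharing a member's symbol were summed, genes were kept by filterByExpr (minimum count 10, minimum total 15), and 1 edgeR quasi-likelihood model with TMM scaling was fitted to all 12 libraries. P-values were adjusted by Benjamini-Hochberg over 13802 genes, and log2 CPM used a prior count of 2. Ratios of paralogs were compared by exact permutation tests. The code was tested on simulated data. Alternatives were DESeq2 size factors (RLE), library totals, no filter, DESeq2's own test, a fit of each pair of groups, a replicate block, leaving out each library, and identifiers not summed, the last chosen after seeing the data. Named pathway genes were, per list, up to 4 with the smallest p for doxorubicin and up to 2 for ferrostatin-1, and each member's 2 closest protein-coding genes by correlation were named, except 1 list gene that is not reported here. Members and lists were chosen with earlier results of these data known. Library totals of 17523920 to 24879198 counts set the precision, and reads were not marked by molecule. Positions came from GENCODE 29 on GRCh38, and the promoter from RefSeq on GRCh38.p14. R 4.3.3, edgeR 4.0.16, limma 3.58.1, DESeq2 1.42.0, Python 3.11.15, numpy 2.4.6, scipy 1.17.1 and matplotlib 3.10.9 were used.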

Additional observations from a re-analysis of the deposited data

Results flagged for a closer look

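In 3 of the 48 groups of 4 libraries examined, 1 library lay far from the other 3 by the gap to its neighbour relative to the group's range, and chance would flag about 1 in 20 groups. In the group with both compounds, replicate 4 held 288 counts of the SMURF1 identifier ENSG00000284126, against 8 to 13 in the other 3 libraries. The ratio of SMAD2 to SMAD3 counts was 0.746 in doxorubicin replicate 3, against 0.650 to 0.662 in the others. The ratio of SMAD1 to SMAD5 counts was 0.196 in control replicate 2, against 0.181 to 0.183 in the others.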

How the results depend on the processing

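Over the alternatives, single-gene results kept their direction and side of the threshold in 542 cases, lost a call in 23, gained one in 4 and reversed in 1. The reversal was SMAD1 between the treated groups, at 0.0035 without replicate 1 of the group with both compounds; with 1 library left out its values ran from -0.154 to 0.0035, and none was called. Leaving out 1 library at a time gave 8406 to 8877, 490 to 788 and 8469 to 8907 called genes in the 3 comparisons (doxorubicin against control, ferrostatin-1 added, both against control), and 9 to 10, 1 to 3 and 9 to 10 called members. With ferrostatin-1, 1 member was called without doxorubicin replicate 3 and 1 without replicate 4 of the group with both compounds. Scaling by library totals moved the median log2 change of all genes to -0.155 with doxorubicin and -0.169 with both compounds, and the split of higher and lower genes to 3244 and 5752, and 3201 and 5940, against 4441 and 4393, and 4419 and 4454. Numbers 1 to 4 do not pair the libraries by the labels: residuals of same-numbered libraries correlated at -0.0955 to 0.0555. A replicate block gave 8606, 502 and 8706 called genes and 9, 2 and 10 called members, with SMURF2 lost between the treated groups (adjusted p = 0.111). DESeq2 called 8691, 867 and 8807 genes. In 104 alternatives the paralog ratio differences moved by less than the replicate SD; with 3 libraries against 4 the smallest exact p is 0.0571, so these carry no test. SMAD9, at 75 to 188 counts per library, is the member that depth limits most.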
